A study of Mus musculus with 20 samples.

Results

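The colon of 5 mice given Pien Tze Huang (PZH), with no carcinogen and no colitis, was set against the colon of 5 untreated mice. The members were the mice that the labels place in the PZH group (mice 8, 14, 27, 46 and 53) and in the Control group (mice 17, 37, 41, 48 and 50), 10 of the 20 mice sequenced. All were male C57BL/6 mice kept free of specific pathogens. PZH mice received 250 mg/kg PZH by gavage each day for 91 days, and Control mice were gavaged with water over the same time. Neither group received azoxymethane (AOM) or dextran sulfate sodium (DSS). The other 10 mice had 12.5 mg/kg AOM and cycles of 2% DSS, without PZH (AOM/DSS) or with PZH at the same dose (PZH + AOM/DSS), and are used here as a second comparison that shares no animal with the first, for the interaction of PZH with AOM/DSS, and in an alternative model of all 20 mice. The age of the mice is not given in the sources used here, and 1 RNA library was made per mouse, so the spread reported is that between mice.

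PZH is a traditional Chinese formula that contains musk, calculus bovis, snake gall and the root of Panax notoginseng. The mouse colon is lined by a single layer of epithelium in which absorptive colonocytes take up salt and water, and goblet cells secrete the mucin gel that holds bacteria away from the surface. Below the epithelium lie fibroblasts, vessels, nerves and the smooth muscle coats. Colonocytes also make cholesterol: when sterols are scarce in the endoplasmic reticulum, the transcription factor SREBP-2 is released from its anchor INSIG and switches on the genes of sterol synthesis. Immediate early genes, such as Atf3 and Nr4a1, are transcribed within minutes of a stimulus without new protein synthesis, and their mRNA is short-lived.

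The values are FPKM (fragments per kilobase of transcript, scaled to the fragments mapped in each library) that the authors computed per transcript. They were summed here per gene and compared as log2(FPKM + 1) with limma. Because of the added 1, fold changes of low genes are understated. The 10 tissues carried the colonic genes Car1 (311 to 1145 FPKM), Krt20 (300 to 587 FPKM), Muc2 (234 to 1766 FPKM) and Zg16 (1327 to 4283 FPKM), while the small intestinal genes Apoa4, Sis and Lct did not exceed 0.185 FPKM. The markers thus went with the label colon. The extraction text of the labels names the abdominal aorta instead. Epcam, which every colonocyte uses, was listed at 0 in 8 of the 10 mice, at 718 FPKM in PZH 8 and at 553 FPKM in PZH 27, and transcripts assembled from the reads without a gene name held 12.2 to 14.4% of all FPKM, so a gene's value can lack fragments that were assigned to such a transcript. Errors are SD over 5 mice unless stated.

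Control mice 17 and 50 stood apart from the other 8 mice before any group was compared. Of 21 genes of stratified squamous epithelium, the lining of the anal canal and skin, 20 were higher in both of these mice than in any of the other 8. Their summed level was 984 FPKM in Control 17 and 696 FPKM in Control 50, against 33.4 to 117 FPKM in the other 8. Krt13, a keratin of squamous mucosa, stood at 125 FPKM in Control 17 and 126 FPKM in Control 50 and did not exceed 0.53 FPKM in any other Control or PZH mouse. Krt4, Krt10, Krt14 and Krtdap showed the same division, and 4 of the genes were listed at 0 in all of the other 8 mice. Control 17 was also highest for skeletal muscle genes, and Control 50 for smooth muscle genes. Counts over gene lists are therefore given for all 10 mice and again for the 8 mice left when Control 17 and Control 50 are set aside, a comparison chosen after the data were seen. How much of a group difference comes from the tissue these samples hold was not tested beyond that, and in bulk tissue fewer cells of a type and less RNA per cell cannot be told apart.

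Between PZH and Control colons many more genes passed an unadjusted P under 0.05 than passed the adjustment. With no difference at all, about 1 gene in 20 has an unadjusted P under 0.05. Of 15506 genes tested, 1370 (8.84%) had an unadjusted P under 0.05, 673 higher (4.34%) and 697 lower (4.5%) in PZH mice. By the criteria of the study, more than 2-fold at an unadjusted P under 0.05, 107 genes (0.69%) differed, 57 higher (0.368%) and 50 lower (0.322%). The study applied these criteria to transcripts with DESeq, while the fold here is that of log2(FPKM + 1) in limma. Counts by these criteria, of genes or of transcripts, are therefore not comparable with those of the study. After Benjamini-Hochberg adjustment 1 gene (0.00645%) remained, Ppp1cb, in limma, and none did with all 20 mice in one model. The 5 PZH mice lay above all 5 Control mice in 141 genes (0.909%) and below them in 139 (0.896%). Without Control 17 and Control 50, 493 of 15098 genes (3.27%) were higher and 568 (3.76%) lower at an unadjusted P under 0.05, 1061 (7.03%) in all, 106 (0.702%) met the criteria of the study, and after adjustment Ppp1cb was again the single gene left (0.00662%). Of the 57 higher genes 28 still met the criteria of the study in those 8 mice, and of the 50 lower genes 17 did. In what follows, a gene that rose or fell is one with an unadjusted P under 0.05 in limma, and with the exception of Ppp1cb no such gene passed the adjustment. The median log2 fold change over all genes was 0.0065, and 51.3% of genes had a positive value.

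**Figure D1:**
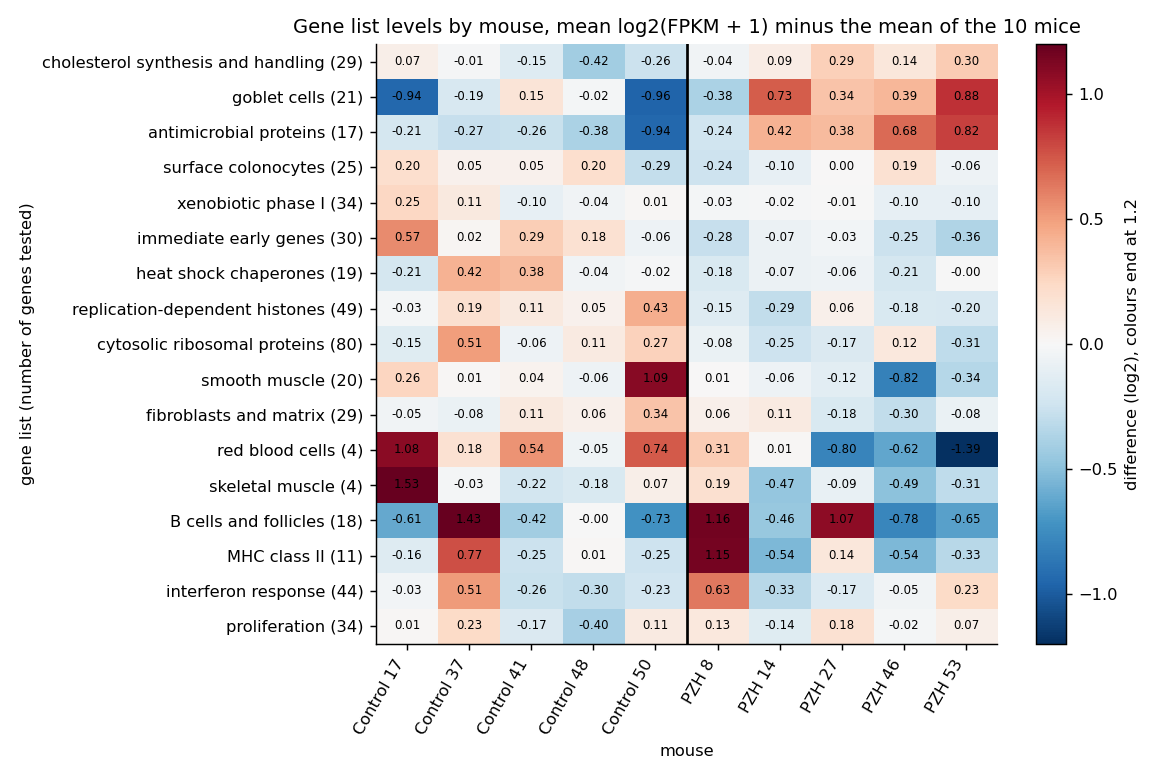
Mean log2(FPKM + 1) of the tested genes of 17 lists in each of the 5 Control and 5 PZH mice, minus the mean of the 10 mice (colours end at 1.2 in either direction, the vertical line parts the groups). Goblet cell genes, at a mean log2 level of 5.17 in Control 17 and 5.15 in Control 50, were lowest in these mice, and immediate early genes were below the 10-mouse mean in all 5 PZH mice.

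Of the 60 lists examined, that of cholesterol synthesis and handling had the largest share of genes that rose. The lists were chosen with earlier results of these data known, so this rank is a description and no test was made of it. Of the 30 genes on the list 29 were tested, 14 rose and none fell, where 4.34% of all genes rose. The median log2 fold change of the list was 0.34, and 24 of the 29 genes had a positive value. Without Control 17 and Control 50, 13 of the list rose, none fell and the median was 0.37. Leaving out Control 48, the mouse with the lowest level of the list, left 9 that rose. The genes that rose lay at early and late steps of the pathway, among them Mvd, Idi1 and Fdps of the isoprenoid steps, Lss, which closes the sterol ring, and Cyp51, Nsdhl and Hsd17b7, which trim it towards cholesterol. Insig1, Stard4 and Abca1, of sterol sensing and transport, rose too.

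Insig1, the sterol-sensing anchor and itself an SREBP-2 target, stood at 56.0, 37.1, 51.9, 28 and 37.5 FPKM in Control mice 17, 37, 41, 48 and 50 and at 64.8, 60.6, 63.3, 63.6 and 72.7 FPKM in PZH mice 8, 14, 27, 46 and 53. Every PZH mouse lay above every Control mouse, and the PZH mice were closer to each other than the Control mice were. The log2 fold change was 0.66 (standard error 0.17, unadjusted P = 0.00269, adjusted p = 0.428 in limma). Stard4, a carrier of cholesterol between membranes, ran from 40.4 to 51.7 FPKM in Control mice and from 54.3 to 68.4 FPKM in PZH mice, also without overlap (log2 fold change 0.41, unadjusted P = 0.000881). The groups did not overlap in 3 genes of the list, Insig1 and Stard4 among them, beside 0.909% of all genes in that direction.

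Lss rose from 12.99 ± 3.12 to 19.1 ± 3.68 FPKM (log2 fold change 0.53, unadjusted P = 0.0133). Hsd17b7 and Abca1, the exporter of cholesterol to apolipoprotein, had the largest fold changes of the list but low levels, 1.01 to 5.06 against 2.52 to 7.98 FPKM for Hsd17b7 (log2 fold change 1.07) and 0.114 to 3.18 against 2.82 to 4.86 FPKM for Abca1 (0.93). Abca1 is switched on by sterols through LXR rather than by SREBP-2. Hmgcs1, an early enzyme of the pathway, and Sqle, which makes the substrate of Lss, did not pass the test, with log2 fold changes of 0.45 (unadjusted P = 0.0599) and 0.28 (unadjusted P = 0.111), and without Control 17 and Control 50 Hmgcs1 passed it (0.64, unadjusted P = 0.00799). Srebf2, the gene of SREBP-2 itself, was at 61.5 ± 9.4 FPKM in Control mice and 67.5 ± 6.71 FPKM in PZH mice (log2 fold change 0.14, unadjusted P = 0.26).

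**Figure D2:**
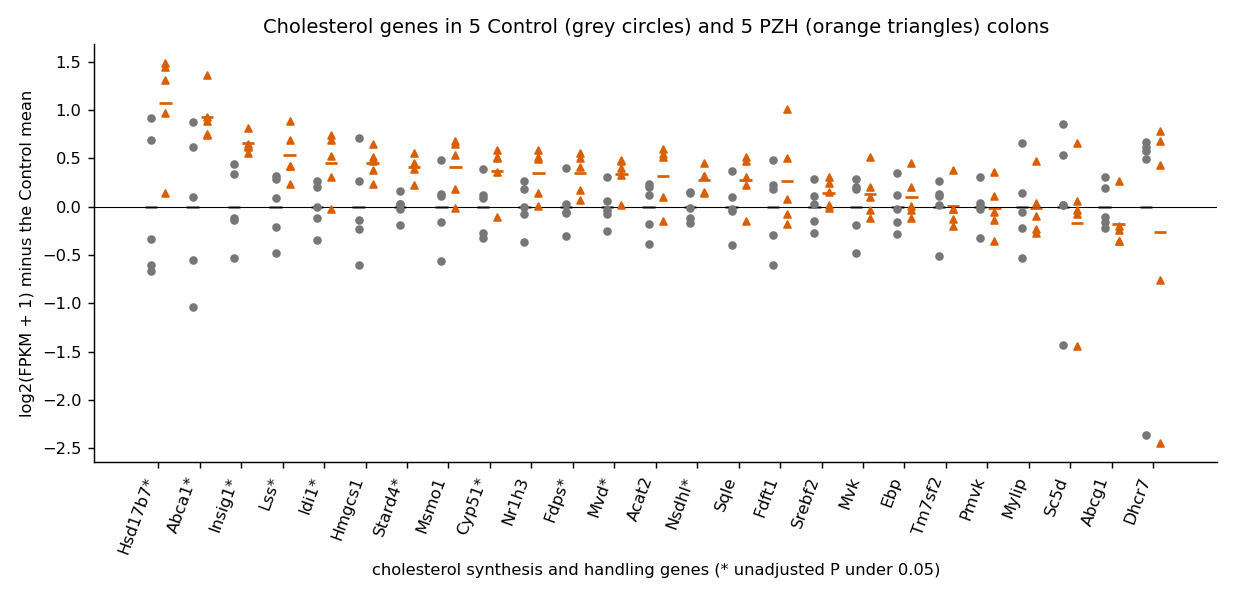
log2(FPKM + 1) minus the Control mean for 25 of the 29 tested genes of cholesterol synthesis and handling, ordered by log2 fold change, with 1 point per mouse (grey circles, 5 Control; orange triangles, 5 PZH), short bars at the group means and asterisks at an unadjusted P under 0.05 in limma. The 10 genes with asterisks all have a PZH mean above 0, while Dhcr7 and Sc5d, whose mice spread over more than 2 log2 units in both groups, do not pass the test.

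Since these genes moved together, the 250 bases before their start sites are shown for Insig1, Idi1 and Cyp51, which rose. Hmgcs1 is shown as well, since among the windows found its window alone held an exact match to the sterol element. The sequences are those of RefSeq on GRCm38.p6, written along the strand of the gene with the found motifs in capitals. They are Insig1 (chr5:28071162-28071411, plus strand), Idi1 (chr13:8885356-8885605, plus strand), Cyp51 (chr5:4104698-4104947, minus strand) and Hmgcs1 (chr13:119690101-119690350, plus strand).
Insig1: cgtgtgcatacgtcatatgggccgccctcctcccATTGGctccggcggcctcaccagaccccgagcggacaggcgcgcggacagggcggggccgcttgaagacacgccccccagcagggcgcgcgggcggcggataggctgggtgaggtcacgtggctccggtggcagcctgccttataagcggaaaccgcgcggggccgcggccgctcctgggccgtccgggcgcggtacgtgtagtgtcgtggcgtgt
Idi1: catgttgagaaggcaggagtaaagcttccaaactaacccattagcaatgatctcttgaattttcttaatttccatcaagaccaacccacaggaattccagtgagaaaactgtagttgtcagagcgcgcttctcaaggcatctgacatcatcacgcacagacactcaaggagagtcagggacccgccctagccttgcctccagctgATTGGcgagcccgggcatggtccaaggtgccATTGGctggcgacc
Cyp51: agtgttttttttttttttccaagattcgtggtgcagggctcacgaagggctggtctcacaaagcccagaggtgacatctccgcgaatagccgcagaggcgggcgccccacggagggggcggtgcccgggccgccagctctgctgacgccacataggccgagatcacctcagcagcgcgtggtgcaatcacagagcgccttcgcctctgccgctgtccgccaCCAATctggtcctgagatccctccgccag
Hmgcs1: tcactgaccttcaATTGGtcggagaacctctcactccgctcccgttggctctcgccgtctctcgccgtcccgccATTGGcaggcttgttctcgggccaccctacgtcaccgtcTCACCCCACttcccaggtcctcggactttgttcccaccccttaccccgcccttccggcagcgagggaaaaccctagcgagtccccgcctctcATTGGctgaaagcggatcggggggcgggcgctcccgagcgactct
The search used CCAAT, the box bound by NF-Y, a partner of SREBP-2, and the sterol element TCACNCCAC, each on both strands (ATTGG is CCAAT on the other strand). Neither motif contains the other. A window was found for 21 of the 30 genes, among them 8 that rose. CCAAT occurred in 18 of the 21 windows (85.7%) and in 7 of the 8 of genes that rose, against 33.8% of all 32851 promoter windows and 40% of the 10804 tested genes with a window. TCACNCCAC occurred in 1 window of the list, that of Hmgcs1, which holds it once beside CCAAT in 3 places, against 1.05% of all windows. These matches describe the letters in the windows and not binding in these colons.

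In the AOM/DSS mice, which share no animal with the comparison above, PZH + AOM/DSS was set against AOM/DSS for the same list. Of 29 genes tested 2 rose, Lss and Hsd17b7, and 1 fell, Tm7sf2, where 3.51% of 15888 genes rose and 8.21% fell. The list median was 0.15. All 14 genes that had risen with PZH alone had a positive value there too. Of all genes that rose with PZH alone 55.3% did, and of all genes tested in both comparisons 52.4% had the same sign in both. For Insig1 the value was 0.14 (unadjusted P = 0.617). PZH + AOM/DSS mouse 35 lay apart from its group in earlier results of these data. Leaving it out was a choice made with the data known. Without it 6 of the 29 rose, 2 fell and the list median was 0.23, where 6.85% of 15639 genes rose and 14.9% fell (21.7% in all, against 11.7% with it).

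Goblet cell and antimicrobial genes were higher in PZH mice, and here Control 17 and Control 50 weighed on the result. Of 21 goblet cell genes tested 6 rose and none fell (median log2 fold change 0.37), where 4.34% of all genes rose. Without these mice 3 rose, 1 fell and the median was 0.06, where 3.27% of all genes rose and 3.76% fell. Of 17 antimicrobial genes tested 6 rose and none fell (median 0.30), and without these mice 3 of 16 rose (median 0.15). Ang4 and Retnlb stand on both lists, and are 2 of the 6 that rose in each and 2 of the 3 in each without these mice. With at least 1 FPKM required in all 10 mice 2 antimicrobial genes rose. That filter left Retnlb, Ang4, Itln1 and Nos2 untested because of their low Control values, so this count cannot show whether they rose. Leaving out any 1 of Control 17, Control 50 and PZH 53 also left 3 antimicrobial genes that rose. The goblet cell genes that rose were Retnlb, Ang4, Muc2, Bcas1, Best2 and Tpsg1.

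Retnlb, the resistin-like molecule that goblet cells secrete against bacteria and worms, was measured at 0.615, 3.94, 6.44, 2.51 and 0.675 FPKM in Control mice 17, 37, 41, 48 and 50 and at 5.07, 171, 102, 293 and 538 FPKM in PZH mice 8, 14, 27, 46 and 53. Of the PZH mice, 4 exceeded the highest Control mouse by more than 10-fold, and PZH 8 lay within the Control range. The log2 fold change was 5.11 (standard error 1.04, unadjusted P = 0.000496, adjusted p = 0.378 in limma), and 4.46 without Control 17 and Control 50 (unadjusted P = 0.00681). Ang4, an angiogenin that kills bacteria, followed the same mice: it stood at 4.63 FPKM in PZH 8 and at 142 to 2095 FPKM in the other 4, against 0.517 to 4.11 FPKM in 4 Control mice and 52.8 FPKM in Control 41 (log2 fold change 5.51, unadjusted P = 0.00419, and 4.42, unadjusted P = 0.0386, without the 2 Control mice). Mptx1, a secreted pentraxin of the mucosa, ran from 229 to 2047 FPKM in Control mice and from 660 to 9561 FPKM in PZH mice (log2 fold change 2.01, unadjusted P = 0.0248). The 2 lowest Control mice were again 17 and 50, and without them its log2 fold change was 1.16 (unadjusted P = 0.18).

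Muc2, the gel-forming mucin of the colon, was at 252.39 and 233.8 FPKM in Control 17 and Control 50, at 356, 982 and 588 FPKM in the other Control mice and at 434, 1164, 827, 746 and 1766 FPKM in the PZH mice. The groups overlapped. Its log2 fold change was 1.10 (unadjusted P = 0.0332) in all mice and 0.59 (unadjusted P = 0.236) without these 2. Bcas1 rose both with and without them (29.5 ± 9.37 against 48.1 ± 8.35 FPKM, log2 fold change 0.73, unadjusted P = 0.00448, and 0.45, unadjusted P = 0.0317). The abundant goblet cell products Tff3 and Zg16 did not rise: Tff3 was at 1376 ± 383 FPKM in Control mice and 1137 ± 186 FPKM in PZH mice (unadjusted P = 0.259), and Zg16 at 2979 ± 1376 and 3374 ± 752 FPKM (unadjusted P = 0.407). Without the 2 Control mice Tff3 was the goblet cell gene that fell (log2 fold change −0.54, unadjusted P = 0.00882). Itln1, an intelectin that binds bacterial sugars, Pla2g2a, a bactericidal phospholipase, Nos2, which makes nitric oxide, and Pigr, which carries IgA across the epithelium, also rose, and of these Nos2 alone kept an unadjusted P under 0.05 without the 2 mice (log2 fold change 0.63 in all mice and 0.74 without them).

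**Figure D3:**
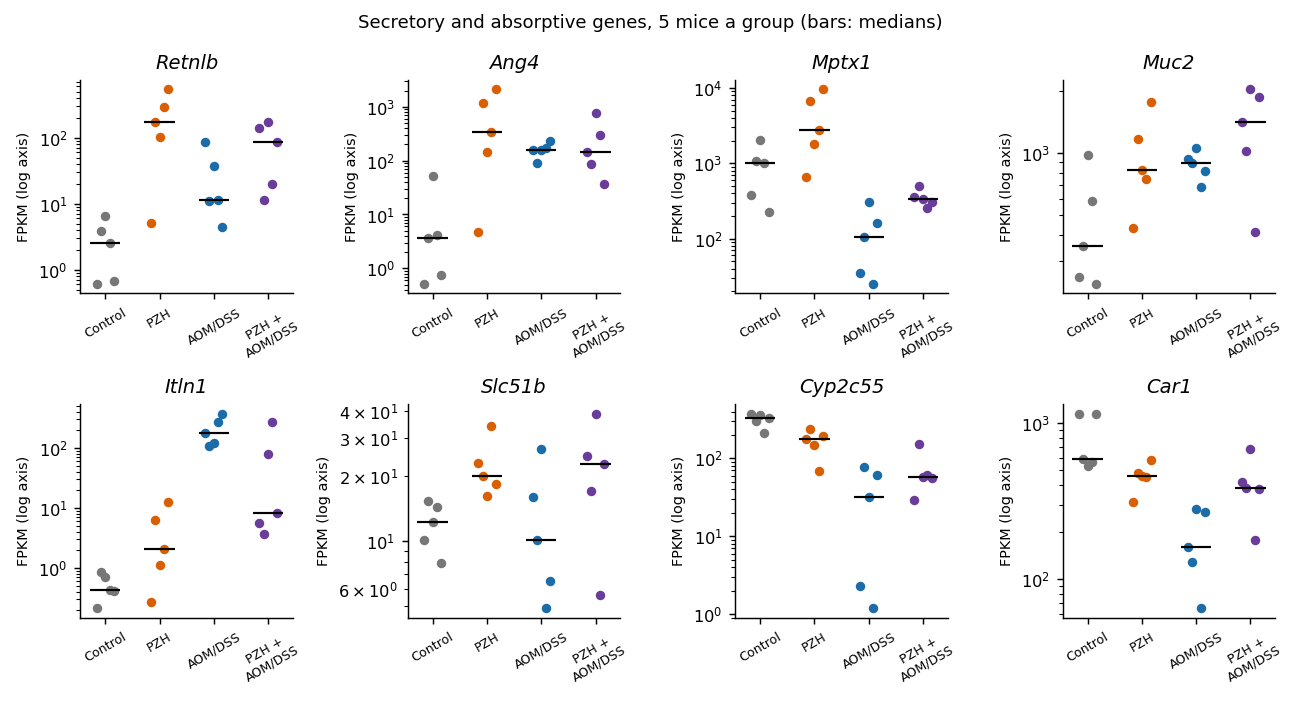
FPKM (log axis) of 8 secretory and absorptive genes in each mouse of the 4 groups (1 point per mouse, 5 per group, bars at the medians). For Retnlb and Ang4, 4 of the 5 PZH points stand above all Control points and the fifth, PZH 8 (5.07 and 4.63 FPKM), stands among them.

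Among AOM/DSS mice Retnlb ran from 4.51 to 85.5 FPKM without PZH and from 11.5 to 174 FPKM with it (log2 fold change 1.54, unadjusted P = 0.116), and Ang4 from 90.1 to 228 and from 37.4 to 773 FPKM (0.06, unadjusted P = 0.933). Mptx1 rose there as well, from 25.2 to 308 FPKM without PZH to 257 to 507 FPKM with it (1.99, unadjusted P = 0.00706). Itln1 had the opposite sign in the 2 comparisons, 1.34 in mice without AOM/DSS and −3.04 in mice with it (unadjusted P = 0.0144), and the interaction of −4.38 had an adjusted p of 0.35 in limma. Over the antimicrobial list none of 19 genes rose and 4 fell in the AOM/DSS mice, where 3.51% of all genes rose and 8.21% fell.

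Genes of the absorptive surface moved in both directions. Of 25 genes of surface colonocytes 4 fell and 1 rose (median −0.25), where 4.5% of all genes fell and 4.34% rose, and with all 20 mice in one model 1 fell. In the 8 mice left without Control 17 and Control 50, Aqp8, Guca2a, Cyp2c55 and Sult1a1 fell and none rose (median −0.19). Leaving out Control 41 alone gave 7 that fell, and leaving out PZH 53 gave 2. Car1, a carbonic anhydrase, fell from 793 ± 318 to 457 ± 97.1 FPKM (log2 fold change −0.73, unadjusted P = 0.0175), and its 2 highest values, 1134 and 1145 FPKM, were those of Control 17 and Control 50. Without these mice the value was −0.32 (unadjusted P = 0.113). Slc26a3, the chloride and bicarbonate exchanger, and Mep1a, a brush border protease, fell as well (−0.39 and −0.43) but not without these mice. Slc9a3, the sodium and proton exchanger, rose from 5.68, 20.4, 55.1, 57.8 and 3.27 FPKM in the Control mice to 26.8, 67.2, 42.2, 71.2 and 101 FPKM in the PZH mice (1.65, unadjusted P = 0.0457), with the lowest values in Control 17 and Control 50, and did not differ without them (0.47, unadjusted P = 0.348). In the AOM/DSS mice 6 of the 25 rose with PZH and none fell (median 0.66), where 3.51% of all genes rose, Car1 among them (1.23, unadjusted P = 0.0172) and Slc26a3 (1.25, unadjusted P = 0.0121). The interaction was 1.96 for Car1 and 1.64 for Slc26a3, each with an adjusted p of 0.35 in limma.

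Cyp2c55, a cytochrome P450 of the colon that is induced through the xenobiotic receptors CAR and PXR, stood at 374, 305, 364, 211 and 329 FPKM in Control mice and at 176, 239, 149, 68.3 and 192 FPKM in PZH mice. PZH 14 alone was above the lowest Control mouse. It fell in all mice (log2 fold change −1.02, standard error 0.30, unadjusted P = 0.0063) and without Control 17 and Control 50 (−0.90, unadjusted P = 0.0412). It belongs to the phase I list of drug metabolism, of which 7 of 34 genes fell and 1 rose (median −0.10), where 4.5% of all genes fell, and 3 fell without these mice, Cyp2c55, Cyp2d34 and Ces1d. Leaving out Control 50 alone left 2 that fell, PZH 46 left 3, and Control 17 or PZH 53 left 4. Ces1d, a carboxylesterase, fell without overlap between groups, from 15.1 to 23.2 FPKM down to 11.3 to 14.3 FPKM (−0.48, unadjusted P = 0.00232), and in the AOM/DSS mice rose with PZH (0.76, unadjusted P = 0.00456). Por, the reductase that feeds electrons to the cytochromes P450, and Ephx1, an epoxide hydrolase, fell in all mice (−0.49 and −0.21) but not without Control 17 and Control 50. Cyp4f14 was the gene of this list that rose (0.97, unadjusted P = 0.0318).

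Bile acid genes were of interest because the formula contains gall and calculus bovis. Of 14 tested 2 rose, where 4.34% of all genes did, and none fell (median −0.0089), and 1 rose without Control 17 and Control 50. Slc51b, a subunit of the transporter that exports bile acids from enterocytes and a target of the bile acid receptor FXR, was at 10.1, 15.2, 12.2, 14.4 and 7.92 FPKM in Control mice and at 22.9, 20.04, 16.1, 34.3 and 18.3 FPKM in PZH mice. The lowest PZH mouse lay just above the highest Control mouse (log2 fold change 0.84, standard error 0.22, unadjusted P = 0.00293, and 0.60, unadjusted P = 0.0246, without the 2 Control mice). Its partner Slc51a did not exceed 0.115 FPKM in any of the 10 mice and was not tested. Vdr, the vitamin D receptor, which also binds lithocholic acid, rose from 87.4 ± 8.3 to 100.1 ± 5.38 FPKM (0.20, unadjusted P = 0.0446, and 0.22, unadjusted P = 0.064, without the 2 mice).

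Other epithelial functions moved in a few genes. The counts of these lists stand beside 8.84% of all genes that rose or fell in the 10 mice and 7.03% in the 8 mice without Control 17 and Control 50. Of 33 genes of ion and water transport 4 rose and 3 fell, and 2 rose and 2 fell in the 8 mice. Slc12a2, the cotransporter that brings in chloride for secretion, was at 34.0 to 55.8 FPKM in Control mice and 52 to 61.4 FPKM in PZH mice (log2 fold change 0.43, unadjusted P = 0.00614, and 0.37, unadjusted P = 0.0369, without Control 17 and Control 50). Of 24 genes of tight junctions and adhesion Cgn and Dsc2 rose and Cldn8, Cldn23 and F11r fell, and of 23 in the 8 mice 1 rose and 1 fell. Of 33 p53 targets and apoptosis genes 5 fell, Bax, Bad, Bid and Mcl1 among them, and 1 rose, Bbc3, and in the 8 mice 3 fell and 1 rose. Bax, which opens the outer mitochondrial membrane, went from 45.1 ± 3.53 to 35.9 ± 4.57 FPKM (−0.32, unadjusted P = 0.0112). Bbc3, which encodes the death-promoting protein PUMA, rose from 5.93 ± 1.77 to 8.59 ± 1.48 FPKM (0.49, unadjusted P = 0.0202).

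Immediate early genes were lower in PZH mice. Of 30 tested 10 fell and none rose, where 4.5% of all genes fell, and 29 of the 30 had a negative value (median −0.33). Without Control 17 and Control 50, 10 of 29 fell and none rose (median −0.29). The genes that fell were Atf3, Ccn2, Dusp1, Dusp5, Fosl1, Klf4, Klf6, Maff, Nr4a1 and Nr4a3, which encode transcription factors, orphan nuclear receptors, phosphatases that switch off MAP kinases and a secreted matrix protein. The groups of Dusp5, Fosl1 and Maff did not overlap, beside 0.896% of all genes in that direction. In the 8 mice without Control 17 and Control 50, Dusp6, Klf2 and Myc fell in place of Klf4, Klf6 and Nr4a3. The most familiar members did not pass the test: Fos ran from 29.3 to 146 FPKM in Control mice and from 30.7 to 97.4 FPKM in PZH mice (unadjusted P = 0.586), Egr1 from 1.73 to 17.6 and from 2.62 to 8.98 FPKM (unadjusted P = 0.514), and Jun was at 32.7 ± 5.85 and 26.4 ± 5.94 FPKM (unadjusted P = 0.102).

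Atf3, a stress-responsive transcription factor, stood at 36.98, 23.7, 26.3, 21.1 and 17.8 FPKM in the Control mice and at 7.04, 9.97, 16.04, 18.1 and 7.01 FPKM in the PZH mice. PZH 46 just passed the lowest Control mouse, and the other 4 PZH mice lay below all of them. The log2 fold change was −1.11 (standard error 0.28, unadjusted P = 0.00235), and −1.06 without Control 17 and Control 50 (unadjusted P = 0.00811). In the AOM/DSS mice the difference ran the other way, from 9.77 to 15.4 FPKM without PZH to 22.2 to 40.2 FPKM with it, with no overlap (1.198, unadjusted P = 5.78e-05). The interaction over all 20 mice was 2.305 (standard error 0.35, adjusted p = 0.0459 in limma) and 2.26 without Control 17 and Control 50 (adjusted p = 0.0548). It was 1 of 2 genes among 16936 (0.0118%) with an adjusted P under 0.05 for the interaction, 1 positive (0.0059%) and 1 negative (0.0059%), while 1749 (10.3%) had an unadjusted P under 0.05, 577 positive (3.41%) and 1172 negative (6.92%). Without PZH + AOM/DSS mouse 35, a choice made with the data known, 476 had an adjusted P under 0.05.

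Nr4a1, an orphan nuclear receptor, had 15.9, 19.7, 15.4, 5.69 and 11.4 FPKM in the Control mice and 2.08, 4.49, 6.37, 3.75 and 2.86 FPKM in the PZH mice (log2 fold change −1.54, unadjusted P = 0.00055). Only PZH 27 exceeded the lowest Control mouse. It too was higher with PZH among AOM/DSS mice (0.94, unadjusted P = 0.0288), as were Klf4 (−0.32 with PZH alone, 0.65 in AOM/DSS mice) and Errfi1 (−0.88 and 0.48), an inhibitor of the EGF receptor that was listed with the corticosteroid response and whose groups did not overlap with PZH alone. Dusp1 was lower with PZH alone (21.9 ± 7.6 against 10.5 ± 2.36 FPKM, −0.96, unadjusted P = 0.00179) and hardly differed in AOM/DSS mice (−0.03, unadjusted P = 0.885). The adjusted p of the interaction was 0.257 for Nr4a1, 0.182 for Errfi1, 0.375 for Klf4 and 0.38 for Dusp1. Sgk1, the kinase induced by corticosteroids, fell from 47.5 ± 14.2 to 25.1 ± 9.11 FPKM (−0.91, unadjusted P = 0.00405), while Fkbp5, also induced by corticosteroids, rose (0.55, unadjusted P = 0.0227).

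**Figure D4:**
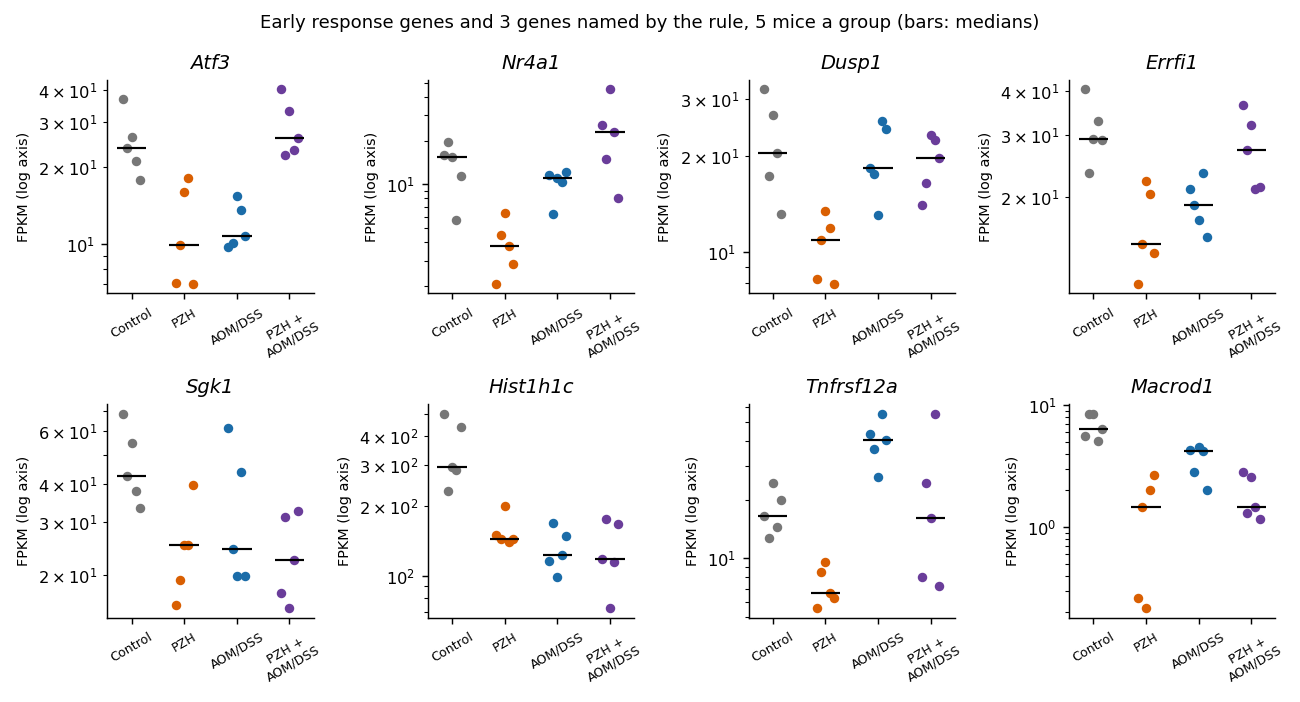
FPKM (log axis) of Atf3, Nr4a1, Dusp1, Errfi1, Sgk1, Hist1h1c, Tnfrsf12a and Macrod1 in each mouse of the 4 groups (1 point per mouse, 5 per group, bars at the medians). Atf3 is lower in PZH than in Control mice and higher in PZH + AOM/DSS than in AOM/DSS mice, whereas Tnfrsf12a is lower with PZH in both pairs.

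Heat shock chaperones fell in 5 of 19 genes tested and rose in none (median −0.11), where 4.5% of all genes fell. In the 8 mice 5 fell (median −0.27), and with all 20 mice in one model 2 fell. Hspa1b, the inducible HSP70, was at 12.5 to 36.2 FPKM in Control mice and 3.52 to 11.3 FPKM in PZH mice without overlap (log2 fold change −1.16, unadjusted P = 0.00453). Its near-identical neighbour Hspa1a (−0.86) shares reads with it, so the division between them is uncertain. Dnaja1 and Dnajb1, cochaperones of HSP70, also fell without overlap between groups (−0.45 and −0.32), and Hspb1 was the fifth (−0.60). Genes of the unfolded protein response of the endoplasmic reticulum did not follow: 3 of 30 rose, Canx, Dnajc3 and Pdia3, and none fell, while in the 8 mice without Control 17 and Control 50 none of 29 rose and 1 fell.

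Replication-dependent histone genes fell in 12 of 49 tested and rose in none, where 4.5% of all genes fell (median −0.27), and in 10 of 46 without Control 17 and Control 50. With at least 1 FPKM required in all 10 mice, which leaves lower genes untested, 5 fell. Hist1h1c, the linker histone H1.2 and the most abundant of those that fell, stood at 499, 233, 295, 286 and 437 FPKM in the Control mice and at 150, 143, 199.7, 139 and 144 FPKM in the PZH mice, so that all PZH mice were below all Control mice. The log2 fold change was −1.12 (standard error 0.20, unadjusted P = 0.000208) and −0.81 without Control 17 and Control 50 (unadjusted P = 0.000381). In the AOM/DSS mice PZH made little difference to it (−0.06, unadjusted P = 0.802), and both of those groups lay between 72.4 and 175 FPKM. Hist1h2bc fell as well (−0.39), and the others that fell were low, such as Hist1h4h (7.7 ± 2.02 against 3.55 ± 0.19 FPKM). None of 34 proliferation genes rose or fell, where 8.84% of all genes did (median 0.08), and 1 of 33 rose without Control 17 and Control 50. Pcna, the replication clamp, was at 78.0 ± 23.5 and 70.1 ± 9.45 FPKM (unadjusted P = 0.561). Histone mRNAs mostly lack poly(A) tails, and the sources name different library preparations, rRNA depletion alone or rRNA depletion followed by poly(A) selection.

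Cytosolic ribosomal protein genes leaned the same way, with 12 of 80 lower and none higher, where 4.5% of all genes were lower, and 77 of 80 with a negative value (median −0.21). Without Control 17 and Control 50, 9 were lower (median −0.24). Leaving out 1 mouse moved the count to 3 without Control 50 or PZH 27, 5 without Control 37, 6 without PZH 14 and 7 without PZH 53. Examples were Rps27 (907 ± 263 against 542 ± 198 FPKM), Rps29 (724 ± 251.9 against 474 ± 98 FPKM) and Rpl37a (695 ± 210 against 476 ± 68 FPKM). Control 37 had the highest level of the list. Measures of the libraries are given beside these genes, and whether they went together from mouse to mouse was not tested. With all genes divided by length into 4 bins of like size, the median log2 fold change was −0.0493 in the bin of the shortest and −0.0057, 0.022 and 0.0459 in the bins of longer genes. The share of FPKM in the mitochondrial rRNAs, which rRNA removal is meant to take away, was 0.197 ± 0.0476% in Control mice and 0.126 ± 0.0304% in PZH mice (exact two-sided permutation test, P = 0.0317, adjusted p = 0.222 over 7 measures). The estimated depth was 17.5 ± 1.41 M fragments in Control mice and 16.3 ± 0.619 M in PZH mice (exact permutation P = 0.167). The part of transcript length and of rRNA removal in the lower histone and ribosomal protein values was not tested.

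Smooth muscle and connective tissue genes were lower in PZH mice, and Control 50 was the highest mouse for them. All 20 smooth muscle genes tested had negative values, 8 fell and none rose (median −0.56), where 4.5% of all genes fell. Without Control 17 and Control 50, 3 fell (median −0.23), Acta2, Tagln and Cnn1, where 3.76% of all genes fell. Leaving out PZH 46 alone left 4 that fell, and PZH 53 left 5. The mean log2 level of the list was 6.94 in Control 50, against 5.78 to 6.10 in the other Control mice and 5.03 to 5.85 in the PZH mice. Cnn1, calponin of smooth muscle, was at 205, 254, 226, 222 and 385 FPKM in the Control mice and at 204, 156, 155, 58.6 and 145 FPKM in the PZH mice. The lowest Control and the highest PZH mouse nearly touched (log2 fold change −0.91, unadjusted P = 0.0125, and −0.80, unadjusted P = 0.0478, without the 2 mice). Myh11, smooth muscle myosin, did not pass the test (−0.53, unadjusted P = 0.161). A CArG box, the element bound by SRF in smooth muscle promoters, was searched for only as CCWWWWWWGG (W is A or T). This exact form was found in 1 of 17 promoter windows of the list, that of Myl9, against 1.47% of all windows. Looser forms were not searched for.

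Of 29 fibroblast and matrix genes 9 fell and none rose (median −0.20), where 4.5% of all genes fell, and 2 fell without Control 17 and Control 50 (median −0.10), Eln and Sparc. Leaving out PZH 46 alone left 3 that fell, Control 50 left 4 and PZH 53 left 5. Eln, the elastin of vessels and muscle coats, was at 12.9, 12.6, 19.9, 17.2 and 25.1 FPKM in the Control mice and at 8.02, 10.1, 9.77, 8.28 and 4.88 FPKM in the PZH mice. No PZH mouse reached the lowest Control mouse, and the fall did not need the 2 mice (log2 fold change −0.998, standard error 0.22, unadjusted P = 0.000972, and −0.94, unadjusted P = 0.00317). Dcn and Mgp fell in the 10 mice (−0.60 and −0.76) but not without Control 17 and Control 50. No collagen gene of 27 tested rose or fell, where 8.84% of all genes did. Hba-a2, a haemoglobin gene whose mRNA can come from blood in the tissue, was lower in PZH mice. It went from 20.3 ± 5.83 to 7.95 ± 4.18 FPKM (−1.31, unadjusted P = 0.000976), and among AOM/DSS mice it was also lower with PZH (−1.44, unadjusted P = 0.00894). Hba-a1 and Hba-a2 are near-identical copies, so their separate values are uncertain.

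Genes of B cells and follicles varied between mice of the same group. The mean log2 level of 18 such genes was 2.96 to 3.32 in Control 37, PZH 8 and PZH 27 and 1.11 to 1.89 in the other 7 mice. No gene of the list rose or fell, where 8.84% of all genes did. Of 31 cytokine and chemokine genes tested 4 fell, Il33, Il15, Tgfb3 and Cxcl16, and 2 rose, Ccl25 and Ccl28, the chemokines that call IgA-producing cells to the gut, beside 4.5% and 4.34% of all genes. In the 8 mice 5 of the 31 fell and 1 rose. Il33, an alarmin, fell from 3.21 ± 0.804 to 1.93 ± 0.556 FPKM (log2 fold change −0.52, unadjusted P = 0.0105). Ccl25 rose from 3.83 ± 0.795 to 5.2 ± 0.887 FPKM (0.37, unadjusted P = 0.0337). All 6 had the same sign in the AOM/DSS mice, Il33 (−1.08) and Ccl25 (0.63) with an unadjusted P under 0.05 there too. Serum cytokines were part of the study, and their genes are given here. Il1b was at 2.71 ± 2.13 and 1.7 ± 0.652 FPKM (unadjusted P = 0.423), Tnf at 1.63 ± 1.07 and 1.71 ± 0.471 FPKM (unadjusted P = 0.668), and Il6 was too low to be tested. Among 44 interferon response genes 1 rose and 1 fell, Stat2 (0.38) and Irf7 (−0.86), and 2 rose and 1 fell in the 8 mice.

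Counts over Wnt genes stayed near the shares over all genes. Of the 13 Wnt genes that the study names 7 were expressed enough to be tested. None of the 7 rose or fell, where 8.84% of all genes did, and so few genes cannot tell that share from none. Ctnnb1, the gene of beta-catenin, was at 221 ± 12.6 FPKM in Control mice and 232 ± 22.8 FPKM in PZH mice (unadjusted P = 0.48), and Axin2, a target of the pathway, at 8.08 ± 2.77 and 9.62 ± 2.7 FPKM (unadjusted P = 0.311). Myc was at 14.7 ± 5.42 and 10.4 ± 2.34 FPKM (log2 fold change −0.41, unadjusted P = 0.114), and without Control 17 and Control 50 it fell (−0.76, unadjusted P = 0.00467). Ccnd1 was at 27.5 ± 4.02 and 28.2 ± 4.11 FPKM (unadjusted P = 0.782). A wider list of pathway components also holds Ctnnb1, Axin2, Myc and Ccnd1. Of its 46 genes tested 3 fell, Wnt4 (−0.40), Sfrp5 (−0.39) and Ccnd2 (−0.45), a share near the 4.5% of all genes that fell. Of 44 in the 8 mice 1 fell and 1 rose. Where 8.84% of all genes rose or fell, none did among 20 circadian clock genes, 19 endothelial genes or 16 enteroendocrine genes, such as Pyy (174 ± 51.9 and 168 ± 9.67 FPKM). In the 8 mice 3 of 19 clock genes rose, where 3.27% of all genes did.

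**Figure D5:**
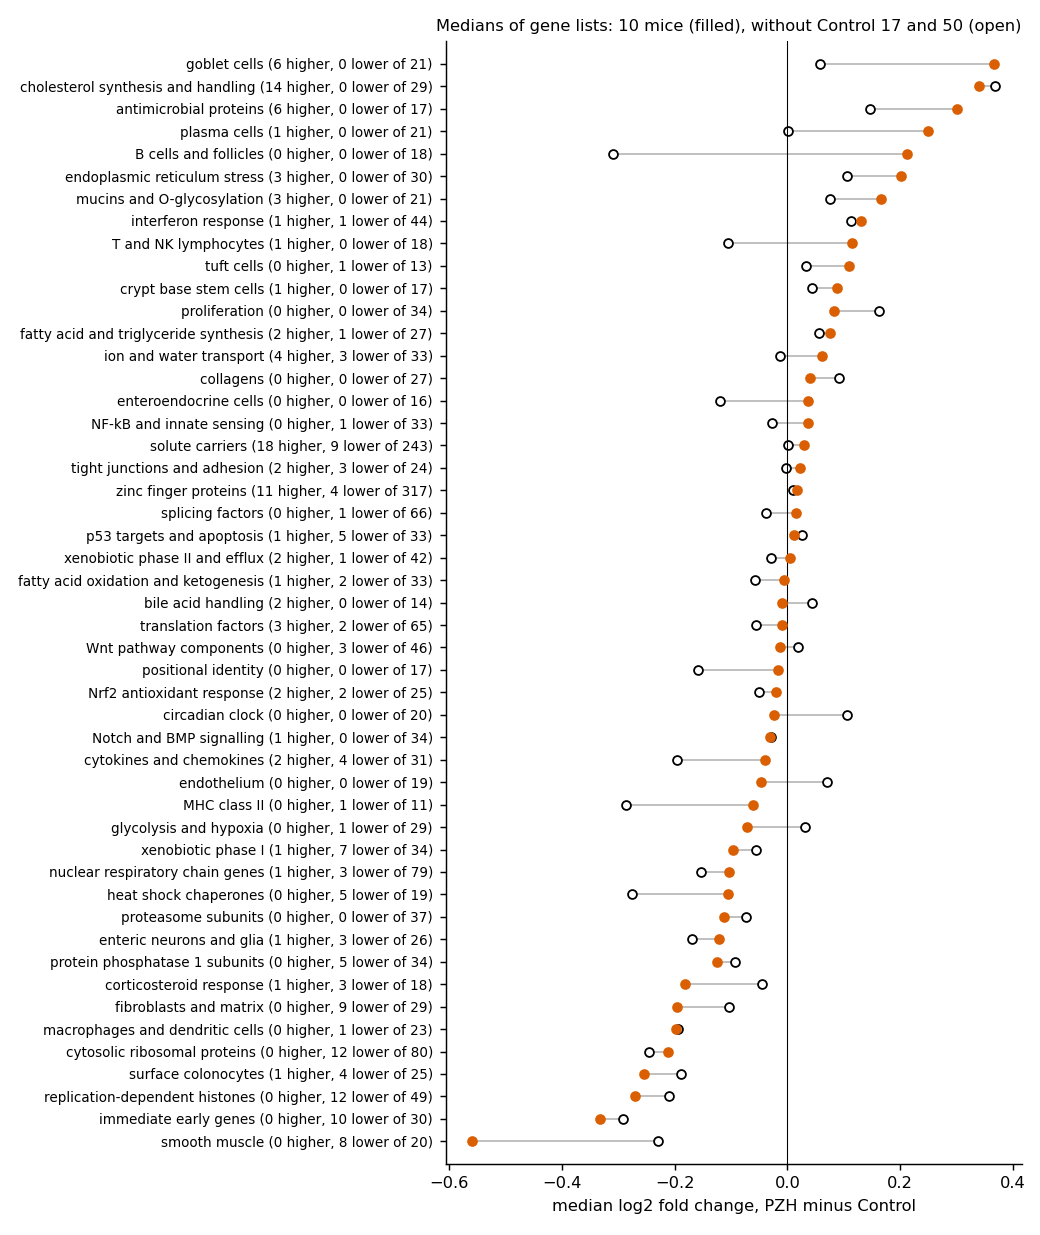
Median log2 fold change (PZH minus Control, limma on log2(FPKM + 1)) of the tested genes of each list in all 10 mice (filled) and without Control 17 and Control 50 (open), with the number of genes that rose and fell at an unadjusted P under 0.05 in the 10 mice. Cholesterol genes stay at 0.34 and 0.37, while goblet cell genes go from 0.37 to 0.06 and smooth muscle genes from −0.56 to −0.23.

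Ppp1cb, a catalytic subunit of protein phosphatase 1 (chromosome 5 of GRCm38, 32458843 to 32517433), was the gene with an adjusted P under 0.05. It stood at 63.7, 58.0, 64.4, 64.1 and 70.2 FPKM in the Control mice and at 32.3, 31.4, 30.3, 31.8 and 30.1 FPKM in the PZH mice, with an unadjusted P of 4.01e-08, and 1.18e-06 without Control 17 and Control 50. With all 20 mice in one model no gene had an adjusted P under 0.05, Ppp1cb included. Most of the Ppp1cb signal in these 10 mice came from 1 transcript, Ppp1cb-201, at 57.7 to 69.5 FPKM in Control mice and 26.2 to 29.6 FPKM in PZH mice. The same high and low levels occurred within both AOM/DSS groups: 63.9, 10.1, 59.3, 31.0 and 27.6 FPKM for the gene in AOM/DSS mice and 30.5, 65.1, 77.5, 63.2 and 59.7 FPKM in PZH + AOM/DSS mice. A short transcript of the gene, Ppp1cb-205, reached 1.38 to 3.3 FPKM in PZH mice and was listed at 0 in every Control mouse, and of the 10 AOM/DSS mice the 4 in which it was listed above 0 all lay at 10.1 to 31.0 FPKM for the gene. Of 34 subunits of protein phosphatase 1 tested, 5 fell and none rose, the others being Ppp1r11, Ppp1r14a, Ppp1r1a and Ppp1r3c, where 4.5% of all genes fell, and 2 of 32 fell without Control 17 and Control 50. In PZH + AOM/DSS mouse 36, at 59.7 FPKM for the gene, Ppp1cb-201 lay below the 26.2 FPKM of the lowest PZH mouse. Most of the signal of mouse 36 thus came from other transcripts of the gene. Whether fragments of Ppp1cb were assigned to a transcript outside the gene in the low mice was not tested.

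Transcripts passed the 2-fold criteria and the adjustment more often than whole genes did, and an unadjusted P under 0.05 less often. Of 40290 transcripts tested 2767 (6.87%) had an unadjusted P under 0.05, 1536 higher (3.81%) and 1231 lower (3.06%), and 605 (1.5%) met the criteria of the study, 296 higher (0.735%) and 309 lower (0.767%). An adjusted P under 0.05 in limma was reached by 11 (0.0273%), 8 higher (0.0199%) and 3 lower (0.00745%), of which 4 were assembled transcripts without a gene name. Arhgef16-206 was at 0.0512 to 0.122 FPKM in Control mice and at 5.62 to 10.9 FPKM in PZH mice, and at 7.88 to 16.6 FPKM in all 10 AOM/DSS mice. Nek1-208 reached 2.37 to 3.94 FPKM in PZH mice and was listed at 0 in every Control mouse, Krit1-201 was at 0.187 to 0.464 and 3.32 to 5.62 FPKM, and Fam76a-202 at 0.852 to 1.48 and 3.4 to 6.57 FPKM. Mknk1-211 was at 2.02 to 4.06 FPKM in Control mice and listed at 0 in all PZH mice. Nek1-208, Krit1-201, Fam76a-202 and Mknk1-211 each took values from both ranges among AOM/DSS mice. Arhgef16-201, the most abundant transcript of its gene, went the other way and fell from 32.8 ± 5.61 to 25.8 ± 2.76 FPKM (log2 fold change −0.33, unadjusted P = 0.0458). Arhgef16-204 rose from 3.04 ± 1.76 to 12.7 ± 3.23 FPKM (1.83, unadjusted P = 0.000149 in limma), and Arhgef16-202 and Arhgef16-203 rose too (0.99 and 0.47). Of the other Mknk1 transcripts, Mknk1-201 rose from 2.37 ± 1.4 to 5.44 ± 0.472 FPKM (1.03, unadjusted P = 0.00311), and Mknk1-212 rose as well (0.50). The number of transcripts with an adjusted P under 0.05 was 15 without Control 17 and Control 50, 1 with all 20 mice in one model, 2 with at least 1 FPKM in all 10 mice, 30 without PZH 14, 2 without PZH 27, 3 without PZH 8 and 5 without PZH 46 or PZH 53.

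Among genes with a mean of at least 5 FPKM in the higher group whose groups did not overlap, the 10 largest rises were those of Ptprd, Sumo2, Ezh1, Krit1, Stard7, Mbtd1, Rnmt, Zmiz1, Rpap1 and Slc51b, and the 10 largest falls those of Macrod1, Frk, Krt17, Hspa1b, Tnfrsf12a, Hist1h1c, Ppp1cb, Eln, Cnn1 and Hist1h4h. Ezh1, a histone methyltransferase of Polycomb repression, rose from 5.2 ± 1.33 to 12.7 ± 2.83 FPKM (log2 fold change 1.15, unadjusted P = 0.000101), and Sumo2, a modifier of proteins, from 17.5 ± 10.02 to 42.8 ± 8.06 FPKM (1.36, unadjusted P = 0.000525). These values are sums over 8 transcripts of Ezh1 and 7 of Sumo2. Frk, a tyrosine kinase of epithelia, was at 7.78 to 19.4 FPKM in Control mice and 1.89 to 5.89 FPKM in PZH mice (−1.61, unadjusted P = 0.000205). Tnfrsf12a, the receptor of the cytokine TWEAK, was at 12.8 to 24.6 and 5.56 to 9.64 FPKM (−1.15, unadjusted P = 9.83e-05). Macrod1, which removes ADP-ribose from proteins, was at 5.1 to 8.49 and 0.217 to 2.66 FPKM (−1.86, unadjusted P = 0.000117). Tnfrsf12a (−1.17, unadjusted P = 0.0311) and Macrod1 (−0.68, unadjusted P = 0.013) fell with PZH in the AOM/DSS mice too. Krt17, a keratin of squamous epithelium, had its highest value in Control 17 (13.98 FPKM) but was lower in PZH mice also without Control 17 and Control 50 (−0.88, unadjusted P = 0.00546). Over these 20 genes, 11 had the same sign in the AOM/DSS mice (55%), beside 52.4% of all genes.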

How the data were processed

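Colon RNA of 5 Control and 5 PZH mice was compared, with the other 10 mice of the series for the interaction. The authors aligned reads, assembled transcripts and deposited 1 FPKM value per transcript and mouse. The submitters' processing notes name limma and mm10. The labels name rRNA depletion, the study's methods also poly(A) selection. Members and gene lists were chosen with earlier results of these data known.

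FPKM of 96032 Ensembl transcripts were summed over 32991 genes of GRCm38, and 22252 assembled transcripts without a gene were tested as transcripts only. Features with at least 0.5 FPKM in 5 of 10 mice were compared as log2(FPKM + 1) with limma 3.58.1 in R 4.3.3 (eBayes, Benjamini-Hochberg), which was also tested on simulated data. A count test was not used, since FPKM are not counts. The depth of 15.4 to 19.5 M fragments per mouse was estimated from the smallest steps of FPKM times length and is approximate.

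Named were features with an adjusted P under 0.05, the 10 largest rises and falls without overlap, list members with an unadjusted P under 0.05 (the 2 highest genes of lists without any), and genes the study names. Not every gene that qualified is described, and a few are not reported here. Chosen after their values were seen were the colonic, small intestinal and squamous markers, Epcam, Hmgcs1, Sqle, Srebf2, Dhcr7, Sc5d, Tm7sf2, Tff3, Zg16, Mptx1, Slc51a, Fos, Egr1, Myh11, Zfat and AY036118, single transcripts that did not pass the adjustment, and the genes named because they passed only without Control 17 and Control 50. For library measures an exact two-sided permutation test over mice was used, which cannot give a P below 0.00794. Alternatives were another pseudocount, other filters, median-of-ratios scaling, all 20 mice in one model, voom, and leaving out mice. Leaving out Control 17 and Control 50, and voom or no filter for single genes, were chosen after seeing the data. So was leaving out PZH + AOM/DSS mouse 35, which lay apart in earlier results of these data. Promoter sequences came from RefSeq (GRCm38.p6).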

Additional observations from a re-analysis of the deposited data

Results flagged for a closer look

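A mouse was called far from the other 4 of its group when its gap to the nearest exceeded 0.71 of the group's range. This held in 18 of 318 groups, and chance alone gives about 1 in 20. Control 50 stood apart for Des (573 FPKM), Tpm1 (564 FPKM) and Ephx1 (20.4 FPKM), and for the mean log2 level of smooth muscle genes (6.94), protein phosphatase 1 subunits (3.97) and, on the low side, antimicrobial genes (4.18). Control 17 stood apart for Krt17 (13.98 FPKM) and skeletal muscle genes (3.06). Control 37 was low for Vdr (73.0 FPKM) and Klf6 (48.4 FPKM) and high for MHC class II genes (5.53), and Control 48 was high for Best2 (19.9 FPKM).

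Among PZH mice, PZH 8 was high for NF-kB and innate sensing genes (2.93). PZH 14 was low for Mbtd1 (4.04 FPKM) and for phase II and efflux genes (4.65). PZH 27 was high for Hist1h1c (200 FPKM), PZH 46 low for Cnn1 (58.6 FPKM), and PZH 53 low for Maff (2.77 FPKM).

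The difference made by PZH differed between mice without and with AOM/DSS for 2 genes with an adjusted P under 0.05 in limma. For Atf3 the interaction was 2.3 (adjusted p = 0.0459). For Zfat it was −1.97 (adjusted p = 0.0459), with 0.0527 to 0.157 FPKM in Control, 0.425 to 1.54 in PZH, 1.73 to 2.68 in AOM/DSS and 0 to 1.64 in PZH + AOM/DSS mice. Zfat was too low to be tested between PZH and Control mice alone.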

How the results depend on the processing

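No paired analysis was possible because the groups share no mouse numbers. Depth is only estimated, and adjusted P values above 0.05 leave single genes uncertain, Ppp1cb included in the model of all 20 mice. Of 98 single genes, 80 had an unadjusted P under 0.05, 49 of them whichever single mouse was left out, and 31 of 79 lost it without Control 17 and Control 50. The cause of the changes below was not tested.

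With at least 1 FPKM in all 10 mice, genes past the criteria of the study numbered 34 higher and 28 lower, with a pseudocount of 0.1, 124 and 113, and with voom, 149 and 111. Without a filter 1254 genes were higher at an unadjusted P under 0.05. With all 20 mice in one model 0 genes and 1 transcript had an adjusted P under 0.05, and 2 heat shock and 1 colonocyte gene fell. Transcripts with at least 1 FPKM in all mice numbered 2 at an adjusted P under 0.05, 52 higher and 74 lower past the criteria, and 586 higher and 657 lower at an unadjusted P under 0.05. A pseudocount of 0.1 gave 768 and 629 transcripts past the criteria, and no filter 3263 higher and 2172 lower at an unadjusted P under 0.05. At 1 FPKM in all mice 2 antimicrobial genes rose and 5 histone genes fell, and genes under 1 FPKM in any mouse were not tested there.

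Without Control 17 and Control 50, 3 goblet cell and 3 antimicrobial genes rose, 3 smooth muscle, 2 fibroblast and 3 phase I genes fell, and 0 interactions had an adjusted P under 0.05. The sign turned for Zg16 (−0.27) and Ccnd1 (−0.10) there, and for Pcna (0.0086) with voom.

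Leaving out 1 mouse gave 1 to 2 genes at an adjusted P under 0.05 (2 without Control 37, 41 or 48 or PZH 8 or 53), 45 to 74 higher and 41 to 72 lower past the criteria, and 482 to 874 higher and 476 to 748 lower at an unadjusted P under 0.05. For transcripts these were 2 to 30, 293 to 378, 275 to 355, 1182 to 1709 and 942 to 1240. Counts ran from 9 to 16 for cholesterol, 4 to 8 for goblet cell, 3 to 7 for antimicrobial, 7 to 12 for immediate early, 4 to 9 for smooth muscle, 3 to 9 for fibroblast, 9 to 13 for histone, 3 to 17 for ribosomal protein, 2 to 6 for phase I, 4 to 6 for heat shock and 2 to 7 for colonocyte genes. The sign turned for Fos (−0.52 to 0.047, the latter without Control 17), Ccnd1 (−0.031 without Control 17, −0.0052 without PZH 14, −0.023 without PZH 53, up to 0.10 otherwise), Pcna (−0.26 to 0.037, the latter without Control 37) and Tnf (−0.035 to 0.31, the former without Control 50). Without PZH + AOM/DSS mouse 35, 3401 genes differed at an unadjusted P under 0.05 in the AOM/DSS mice, and 476 interactions had an adjusted P under 0.05.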

Other observations

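Some features took either a high or a low value in each mouse, and their values are given without a comparison. AY036118, a noncoding RNA named here after its values were seen, was at 1154, 1.53, 1196, 1889 and 1889 FPKM in the Control mice and at 0.445, 2115, 0.35, 0.286 and 0.318 FPKM in the PZH mice. Malat1, a nuclear noncoding RNA, was at 5.53 and 1.02 FPKM in Control 17 and Control 50, at 51.4 to 118 FPKM in the other Control mice and at 96.9 to 197 FPKM in the PZH mice.

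Among glutathione transferases, which conjugate foreign compounds, Gstt1 was lower in PZH mice without overlap (40.7 to 57.9 against 30.8 to 38.9 FPKM, log2 fold change −0.42, unadjusted P = 0.00296 in limma), and was higher with PZH in AOM/DSS mice (0.75, unadjusted P = 0.0104). Gstm5 was higher (8.86 ± 6.62 against 17.98 ± 4.45 FPKM, 1.19, unadjusted P = 0.0182). Fasn, fatty acid synthase, rose from 30.9 ± 6.11 to 41.97 ± 6.01 FPKM (0.44, unadjusted P = 0.0115).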
